A study of Mus musculus with 12 samples.

Results

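The circadian repressors and output factors described here are 10 genes of the molecular clock: the period genes Per1, Per2 and Per3, the cryptochrome Cry2, the REV-ERB receptors Nr1d1 and Nr1d2, the PAR bZIP factors Dbp, Tef and Hlf, and Ciart. They were taken by name from a table of 27179 genes, in which all 10 were present, and all 10 were among the 13626 genes with enough counts to be tested. The table holds bulk RNA sequencing of 12 mouse hearts, 3 in each of 4 groups. The groups were TAC after diesel exhaust, sham after diesel exhaust, TAC after filtered air, and sham after filtered air. Every mouse had been exposed in utero, to diesel exhaust or to filtered air, from embryonic day 0.5 until late gestation, and was then raised in filtered air. At 12 weeks of age it had transverse aortic constriction (TAC), a narrowing of the aorta set with a 27 gauge needle that loads the left ventricle with pressure, or a sham operation. Hearts were imaged at 11 weeks and taken at 15 weeks. The sources used here give no strain, litter, sex, sequencing run or hour of harvest for a heart. Since the exposure acted on the dam, hearts of 1 exposure may share a litter, and the p-values measure only the spread between these samples.

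In most cells of the body the clock runs as a loop of transcription that delays itself. A dimer of the proteins of Clock, or its relative Npas2, and Arntl (BMAL1) binds E-boxes and switches on the Per, Cry, Nr1d and Ciart genes, whose proteins then hold that dimer back or, in the case of the REV-ERB receptors, silence Arntl through ROR elements. The PAR bZIP factors are driven by the same E-boxes and pass the rhythm on through D-boxes, so transcripts of the repressors and outputs peak at other hours than Arntl, in the heart as elsewhere. The rodent heart keeps such a clock in its muscle cells, where it times genes of fuel use and of repolarisation.

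Promoters of members with an E-box or a D-box are shown because these motifs are elements through which clock factors are known to act. RefSeq promoters on GRCm38.p6 were found for 9 members in 11 windows, and the entry for Per2 was missing. In the 250 bases before the start, on both strands, the E-box CACGTG stood in 3 members, Ciart, Per1 and Tef, against 6.86% of 27025 genes in the promoter table. The D-box, searched as TTATGTAA or TTACGTAA, stood in 1 member, Per3, against 1.1% of genes, and the ROR element core AGGTCA in 2 members, Nr1d2 and Per1, against 15.8% of genes. Cry2, Dbp, Hlf and Nr1d1 carried none of the 3 motifs in these windows. In the runs below, read 5′ to 3′ on the strand of the gene and trimmed to bases outside annotated exons, capitals mark the E-boxes of Ciart, Per1 and Tef and the D-boxes of Per3.
Ciart, minus strand, chr3:95882258-95882478: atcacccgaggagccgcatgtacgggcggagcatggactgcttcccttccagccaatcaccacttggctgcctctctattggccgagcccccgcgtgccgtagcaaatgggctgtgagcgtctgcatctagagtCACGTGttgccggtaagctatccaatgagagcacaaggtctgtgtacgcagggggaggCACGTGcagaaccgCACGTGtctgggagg
Per1, plus strand, chr11:69098699-69098947: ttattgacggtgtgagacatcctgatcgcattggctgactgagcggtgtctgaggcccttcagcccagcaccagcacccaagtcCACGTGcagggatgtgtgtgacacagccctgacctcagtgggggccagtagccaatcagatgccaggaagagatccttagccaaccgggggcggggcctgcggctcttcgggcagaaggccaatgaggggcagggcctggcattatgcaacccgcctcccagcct
Per3, minus strand, chr4:151044708-151044915: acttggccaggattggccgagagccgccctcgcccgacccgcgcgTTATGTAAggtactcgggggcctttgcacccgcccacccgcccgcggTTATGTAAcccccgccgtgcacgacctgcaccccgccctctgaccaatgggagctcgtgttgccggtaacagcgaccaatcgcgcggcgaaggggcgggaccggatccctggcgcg
Tef, plus strand, chr15:81811164-81811413: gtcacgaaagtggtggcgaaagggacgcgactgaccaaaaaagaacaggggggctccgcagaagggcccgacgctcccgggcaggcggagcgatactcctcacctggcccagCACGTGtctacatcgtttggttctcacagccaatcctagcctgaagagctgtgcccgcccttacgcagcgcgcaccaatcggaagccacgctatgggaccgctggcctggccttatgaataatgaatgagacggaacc
The window of Ciart held 3 E-boxes, 110, 52 and 38 bases before its start, a count of 3 or more that 0.0609% of all 32851 promoters reached. The window of Per3 held 2 D-boxes, 197 and 150 bases before its start, a count of 2 or more that 0.0213% of promoters reached. The E-box of Per1 lay 160 bases and that of Tef 132 bases before the start shown. Tef has a second RefSeq window, at chr15:81802423-81802722, which also held 1 E-box and is not printed. A match to these letters is a description of the sequence and not a measured binding site, and no binding was measured here.

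Library totals ran from 5534685 to 13265816 counts, and mitochondrially encoded RNA took 18.3% to 32.4% of them. Sham replicate 2 after diesel exhaust was lowest in both. Levels are given as CPM, for which TMM factors bring every library to the same scale, and 3 counts correspond to between 0.218 and 0.501 CPM on that scale. Every member lay far above that floor, with 776 counts over the 12 hearts for Ciart, the scarcest, and 14045 for Tef. Per kilobase of exon, the level over all hearts was highest for Nr1d1, at 34.3 ± 11.0 CPM per kb (SD, n = 12). Tef followed at 17.8 ± 4.05, Nr1d2 at 16.9 ± 3.55, Dbp at 13.5 ± 3.52 and Per1 at 8.13 ± 2.0 CPM per kb. Per2 had 5.57 ± 1.78, Per3 4.45 ± 1.06, Cry2 3.57 ± 0.991, Ciart 3.51 ± 1.48 and Hlf 3.36 ± 1.24 CPM per kb. The ranges of neighbours in this order overlapped at every step.

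The labelled tissue, heart, carried the markers of ventricular muscle. The 5 ventricular cardiomyocyte markers Myh6, Myl2, Tnni3, Tnnt2 and Actc1 summed to between 30280 and 50161 CPM in TAC hearts, against 45701 and 62787 CPM in sham hearts. The 3 adipocyte markers summed to at most 3.12 CPM and the 3 thymus markers to at most 1.5 CPM in any TAC heart, against at most 2.45 and 1.38 CPM in any sham heart. The 3 lung markers reached at most 0.435 CPM in TAC and 0.294 CPM in sham hearts.

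TAC against sham asked how pressure load bore on the clock genes. Averaged over both exposures, with 6 hearts on either side, 5 of the 10 members fell and none rose: Ciart, Dbp, Cry2, Per3 and Tef. Over all 13626 genes tested, 3.91% fell, 4.1% rose and 8.01% moved in either direction by the same rule, edgeR's quasi-likelihood test with Benjamini-Hochberg adjustment and a threshold of 0.05. All 10 members had a negative log2 fold change, between -1.12 and -0.19, with a median of -0.46, beside a median of 0.0039 over all genes. The 10 members did not fall alike. Dbp and Ciart stood apart without overlap between TAC and sham hearts, which 2.13% of all genes did in that direction, while Per2 and Nr1d1 spread widely within each group.

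**Figure D1:**
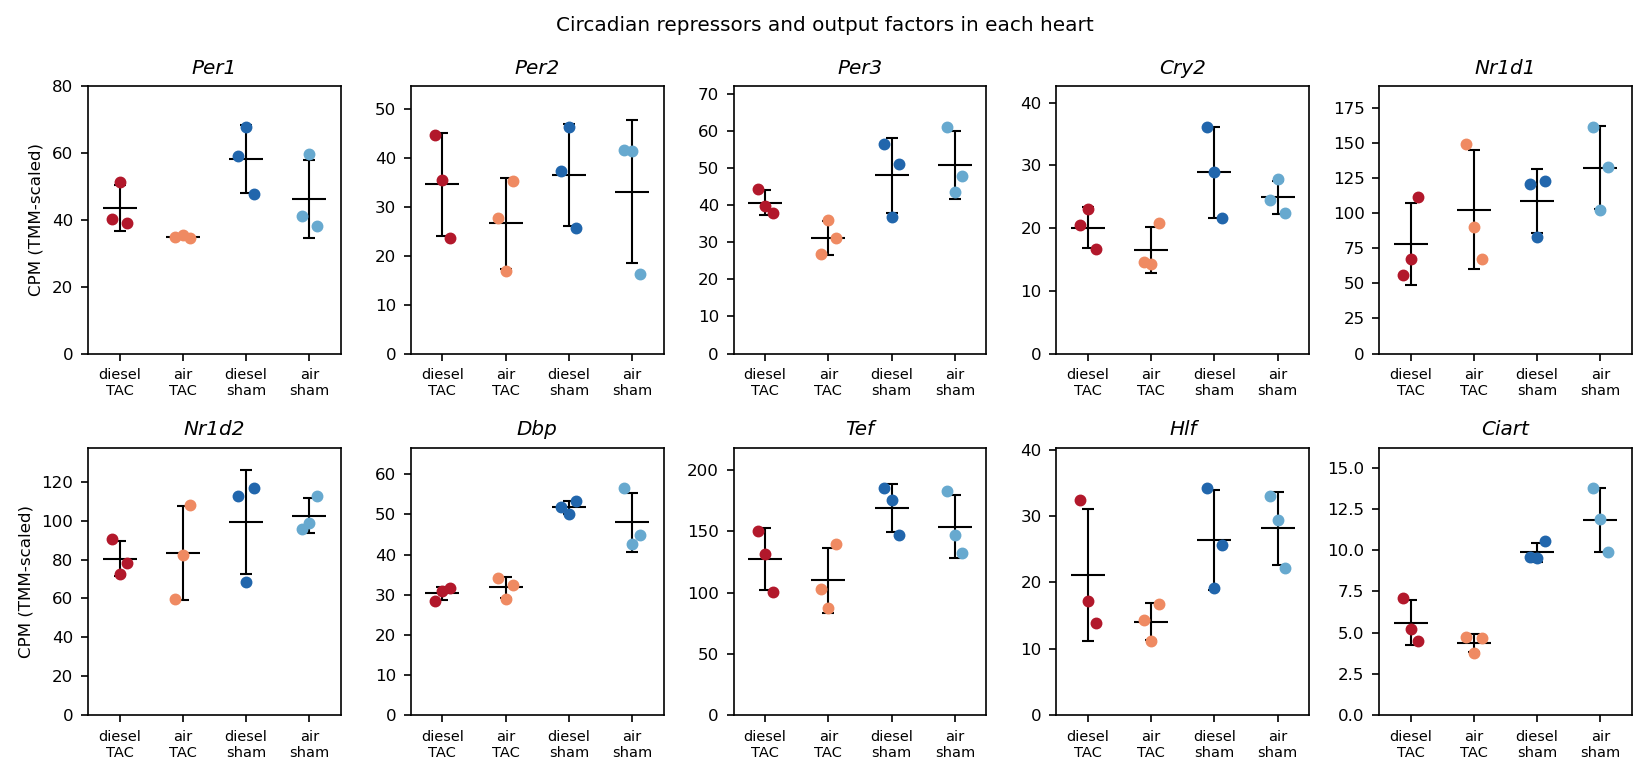
Level of each member in each heart, in TMM-scaled CPM on an axis from 0, for TAC hearts after diesel exhaust and after filtered air (red shades, left) and sham hearts after each (blue shades, right). Points are single hearts, the long line is the mean and the bars are 1 SD (n = 3). The 6 TAC points lie below all 6 sham points for Dbp and Ciart, and TAC and sham points overlap for the other 8 members.

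Ciart, whose protein binds the BMAL1 dimer and represses it, showed the greatest fall among the members. It had 7.11, 5.24 and 4.48 CPM in TAC hearts after diesel exhaust, against 9.57, 9.53 and 10.5 CPM in sham hearts after diesel exhaust. After filtered air it had 4.76, 3.76 and 4.66 CPM in TAC hearts, against 13.8, 11.9 and 9.90 CPM in sham hearts. All 6 TAC hearts lay below all 6 sham hearts. Averaged over exposure, Ciart fell by 1.12 ± 0.21 on the log2 scale (SE, adjusted p = 0.00135, edgeR), with 5.0 ± 1.14 CPM in TAC and 10.9 ± 1.67 CPM in sham hearts (SD, n = 6 each). In the comparison after filtered air it was the 1 member of 10 that passed (log2 -1.43 ± 0.29, adjusted p = 0.0178, edgeR), where 0.22% of all genes fell and 0.829% moved in either direction. That call was lost without TAC replicate 2 (adjusted p = 0.145), sham replicate 1 (0.091), sham replicate 2 (0.058) or TAC replicate 3 (0.0541) after filtered air. After diesel exhaust the estimate was -0.81 ± 0.29 and did not pass (adjusted p = 0.143), although no TAC heart reached the lowest sham heart there. The averaged call held when any 1 of the 12 libraries was left out, with an adjusted p of at most 0.00667. The noncoding gene C920021L13Rik overlaps Ciart over its whole length and had 66 counts over all hearts, against 776 for Ciart. No source used here states whether the counting used strand.

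Dbp, the albumin D-box binding protein and the most rhythmic of the PAR bZIP activators, varied little within its groups. TAC hearts after diesel exhaust had 28.5, 31.0 and 31.6 CPM, against 51.8, 50.1 and 53.4 CPM in sham hearts after diesel exhaust. TAC hearts after filtered air had 34.2, 28.8 and 32.4 CPM, against 56.5, 42.7 and 44.9 CPM in sham hearts after filtered air. The highest TAC heart stayed below the lowest sham heart in both exposures. Dbp fell by 0.68 ± 0.12 averaged over exposure (SE, adjusted p = 0.000914, edgeR), with means of 31.1 ± 2.16 CPM in TAC and 49.9 ± 5.21 CPM in sham hearts (SD, n = 6 each). After diesel exhaust it was the 1 member of 10 that passed (log2 -0.77 ± 0.17, adjusted p = 0.0126, edgeR), where 1.49% of all genes fell and 3.24% moved in either direction. Without TAC replicate 1, 2 or 3 after diesel exhaust that adjusted p became 0.0599, 0.0566 or 0.0535. After filtered air the estimate was -0.60 ± 0.17 (adjusted p = 0.12). The averaged call held without any 1 library, with an adjusted p of at most 0.00435. Dbp shares 741 bases with Sphk2 on the other strand, and Sphk2 had a log2 fold change of -0.34 ± 0.17 (adjusted p = 0.254).

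The other PAR bZIP factors, which bind the same D-boxes, were less even. Tef had 151, 131 and 100 CPM in TAC hearts after diesel exhaust, against 185, 175 and 147 CPM in sham hearts, and 103, 87.7 and 139 CPM in TAC hearts after filtered air, against 183, 147 and 132 CPM in sham hearts. TAC and sham hearts overlapped in both exposures. Its averaged fall of 0.45 ± 0.14 lay just inside the threshold (adjusted p = 0.0497, edgeR) and was lost in 9 of 12 fits with a library left out, up to an adjusted p of 0.148 without TAC replicate 3 after diesel exhaust. Its call held only without sham replicate 3 or TAC replicate 3 after filtered air, or TAC replicate 1 after diesel exhaust. With all libraries kept, it was also lost with library sizes free of mitochondrial genes (adjusted p = 0.0511), with limma voom (0.0529) and without robust weights (0.0756). Hlf had 32.5, 17.2 and 13.8 CPM in TAC hearts after diesel exhaust, against 34.2, 19.2 and 25.7 CPM in sham hearts. After filtered air it had 14.3, 11.2 and 16.7 CPM in TAC hearts, against 33.0, 29.4 and 22.2 CPM in sham hearts. TAC replicate 1 after diesel exhaust stood at the sham level of Hlf, and the filtered-air groups did not overlap. Hlf's averaged estimate of -0.66 ± 0.20 lay just outside the threshold (adjusted p = 0.0523, edgeR). It passed without TAC replicate 1 after diesel exhaust (log2 -0.89, adjusted p = 0.00496), without sham replicate 2 after diesel exhaust (0.0312) or without sham replicate 3 after filtered air (0.0458), and also with DESeq2 (0.0406). With no filter on low counts it passed on average (0.0104) and after filtered air (0.0203).

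Among the period genes, whose proteins form the repressing complex with the cryptochromes, Per3 passed and Per1 and Per2 did not. Per3 had 44.5, 39.9 and 37.8 CPM in TAC hearts after diesel exhaust, against 56.4, 36.8 and 51.1 CPM in sham hearts. After filtered air it had 26.8, 36.0 and 31.1 CPM in TAC hearts, against 61.2, 43.5 and 47.9 CPM in sham hearts. The filtered-air groups of Per3 did not overlap, and sham replicate 2 was the lowest heart after diesel exhaust. Per3 fell by 0.47 ± 0.14 averaged over exposure (adjusted p = 0.0377, edgeR). Its call held only without sham replicate 2 or TAC replicate 2 after filtered air, or sham replicate 2 or TAC replicate 1 after diesel exhaust, and the adjusted p reached 0.108 without sham replicate 1 after filtered air. Per1, which also answers directly to glucocorticoids, had 40.3, 51.3 and 39.0 CPM in TAC hearts after diesel exhaust, against 59.1, 67.9 and 47.6 CPM in sham hearts. After filtered air it had 34.9, 35.5 and 34.5 CPM in TAC hearts, against 41.1, 59.8 and 38.3 CPM in sham hearts. The 3 filtered-air TAC hearts lay within 1 CPM of each other and below their sham hearts, and the averaged estimate was -0.41 ± 0.14 (adjusted p = 0.0714, edgeR). Per2 had 44.5, 35.5 and 23.6 CPM in TAC hearts after diesel exhaust, against 37.3, 46.3 and 25.5 CPM in sham hearts, and 27.7, 16.8 and 35.2 CPM in TAC hearts after filtered air, against 41.5, 41.4 and 16.2 CPM in sham hearts. Its groups lay over each other, with an averaged estimate of -0.19 ± 0.27 (95% interval -0.78 to 0.39, adjusted p = 0.753), and its lowest and highest hearts differed 2.85-fold.

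Cry2, the cryptochrome partner of the period proteins, had 20.5, 23.1 and 16.6 CPM in TAC hearts after diesel exhaust, against 36.1, 28.9 and 21.6 CPM in sham hearts. After filtered air it had 14.5, 14.3 and 20.8 CPM in TAC hearts, against 24.5, 27.8 and 22.4 CPM in sham hearts. Only TAC replicate 2 after diesel exhaust reached into the range of the sham hearts. Cry2 fell by 0.56 ± 0.16 averaged over exposure (adjusted p = 0.035, edgeR). This call was lost in 7 of the 12 fits with a library left out, held without sham replicate 3 or TAC replicate 3 after filtered air and without sham replicate 2, sham replicate 3 or TAC replicate 2 after diesel exhaust, and reached an adjusted p of 0.11 without sham replicate 1 after diesel exhaust. The noncoding gene D930015M05Rik lies across most of Cry2 and had 86 counts, against 2231 for Cry2.

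The REV-ERB receptors, heme-binding repressors of Arntl, had no call. Nr1d1 had 55.9, 67.5 and 111 CPM in TAC hearts after diesel exhaust, against 121, 82.7 and 123 CPM in sham hearts, and 150, 90.0 and 67.5 CPM in TAC hearts after filtered air, against 162, 103 and 133 CPM in sham hearts. Nr1d2 had 90.5, 72.9 and 78.1 CPM in TAC hearts after diesel exhaust, against 113, 68.7 and 117 CPM in sham hearts, and 59.7, 82.6 and 108 CPM in TAC hearts after filtered air, against 96.0, 98.8 and 113 CPM in sham hearts. Groups overlapped for both, and the averaged estimates were -0.43 ± 0.22 for Nr1d1 (95% interval -0.90 to 0.05, adjusted p = 0.295) and -0.30 ± 0.15 for Nr1d2 (-0.61 to 0.01, adjusted p = 0.251). Nr1d1 shares 1075 bases with Thra, the thyroid hormone receptor gene at its 3′ end, which had an averaged estimate of -0.50 ± 0.17 (adjusted p = 0.0742).

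The number of members past the threshold in the averaged comparison was sensitive to single hearts. It was 2, namely Dbp and Ciart, without sham replicate 1 or TAC replicate 1 after filtered air and without sham replicate 1 or TAC replicate 3 after diesel exhaust. It was 3 without sham replicate 2 or TAC replicate 2 after filtered air and without sham replicate 3 or TAC replicate 2 after diesel exhaust, 4 without TAC replicate 3 after filtered air, and 5 in the other 3 fits. In each of those 3 fits Hlf came in and another member was lost. Per3 was lost without sham replicate 3 after filtered air. Tef was lost without sham replicate 2 and Cry2 without TAC replicate 1, both after diesel exhaust. No fit with a library left out called the same 5 members.

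**Figure D2:**
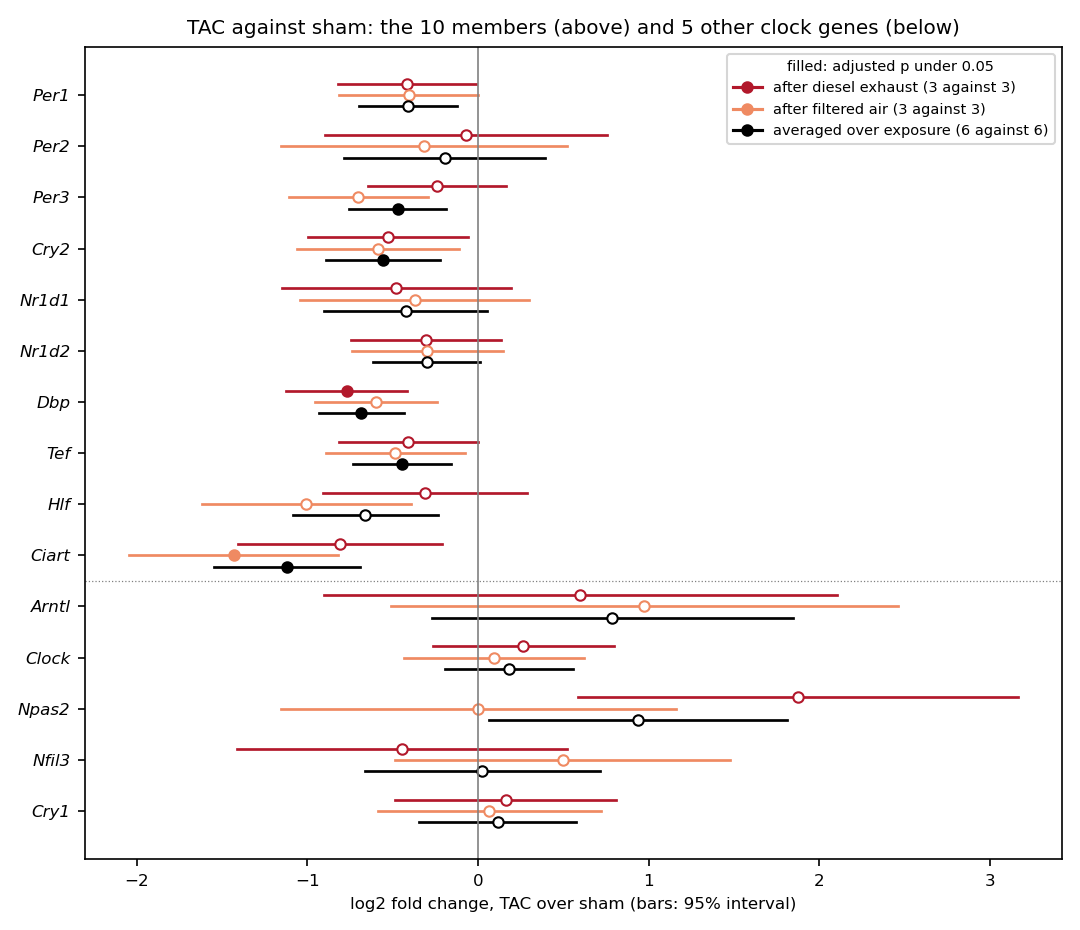
Log2 fold change of TAC over sham with its 95% interval, for the 10 members above the dotted line and 5 other clock genes below it, after diesel exhaust, after filtered air and averaged over exposure. Filled points passed the threshold of 0.05 on the edgeR adjusted p. All 30 member estimates are negative, and the 5 other clock genes have averaged estimates between 0.03 and 0.94.

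Read within each exposure, TAC hearts lay below sham hearts without overlap for 6 of the 10 members after filtered air (Per1, Per3, Cry2, Dbp, Hlf and Ciart), where 7.57% of all genes did so. After diesel exhaust this held for 2 of the 10 (Dbp and Ciart), where 11.2% of all genes did so. The median log2 fold change of the members was -0.41 after diesel exhaust and -0.54 after filtered air, and 5 and 6 members were lower at an unadjusted p under 0.05 in those comparisons, as were 8.12% and 5.14% of all genes. The difference between the exposures was tested as the exposure by surgery interaction. None of the 10 members and 0 of 13626 genes passed in it by edgeR, with 327 genes at an unadjusted p under 0.05, none of them a member. DESeq2 called 1 gene, which was no member. The widest member estimates were Hlf at 0.69 ± 0.41 (95% interval -0.16 to 1.55), Ciart at 0.62 ± 0.41 (-0.23 to 1.47) and Per3 at 0.46 ± 0.28 (-0.11 to 1.04) and each of these points to a smaller TAC effect after diesel exhaust. The intervals hold both no difference and differences as large as the TAC effects themselves.

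Diesel exhaust against filtered air asked whether the prenatal exposure left a mark on the clock genes of the adult heart. No member passed in sham hearts, in TAC hearts or on average, and edgeR called 0 of 13626 genes in each, with 503, 255 and 452 genes at an unadjusted p under 0.05. DESeq2 called 0, 1 and 0 genes, none a member. In sham hearts the 10 estimates ran from -0.28 for Nr1d1 to 0.33 for Per1 with a median of 0.03. In TAC hearts they ran from -0.39 for Nr1d1 to 0.60 for Hlf with a median of 0.30. Per1 and Per3 were higher without overlap in TAC hearts after diesel exhaust than in TAC hearts after filtered air, as 3.96% of all genes were, at log2 0.32 ± 0.20 for Per1 and 0.38 ± 0.20 for Per3 (adjusted p = 1.00 each, edgeR). Averaged over surgery, Per1 alone of the members had an unadjusted p under 0.05 (log2 0.32 ± 0.14, 95% interval 0.03 to 0.61, unadjusted p = 0.0301, adjusted p = 0.999, edgeR).

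The positive limb, that is Arntl, Clock and Npas2, did not pass in any comparison, and neither did Cry1 and Nfil3. Arntl was scarce, with 5 to 73 counts in a heart. It had 1.45, 2.79 and 6.07 CPM in TAC hearts after diesel exhaust, against 0.638, 1.5 and 4.62 CPM in sham hearts, and 8.69, 4.26 and 1.55 CPM in TAC hearts after filtered air, against 1.80, 1.76 and 3.89 CPM in sham hearts. It spread 13.6-fold over the 12 hearts, and in each of the 4 groups the highest heart had over 2 times the CPM of the lowest. Averaged over exposure its TAC estimate was 0.79 ± 0.50 (adjusted p = 0.402, edgeR). Clock, its partner, had 29.4, 44.0 and 53.9 CPM as the lowest, median and highest TAC heart, against 24.7, 36.6 and 54.5 CPM in sham hearts (log2 0.18 ± 0.18, adjusted p = 0.628). Npas2, which can take the place of Clock, had 2.18, 2.68 and 3.88 CPM in TAC hearts after diesel exhaust, against 0.255, 0.669 and 1.44 CPM in sham hearts after diesel exhaust, the lowest of which held 2 counts. Those groups did not overlap (log2 1.87 ± 0.62, adjusted p = 0.109, edgeR). The share of all genes higher without overlap there is not given here, so this cannot be read as particular to Npas2. After filtered air Npas2 had 2.14, 3.26 and 1.79 CPM in TAC hearts, against 1.80, 2.35 and 3.08 CPM in sham hearts. Cry1 had 6.07, 10.4 and 14.5 CPM as the lowest, median and highest TAC heart, against 7.21, 9.36 and 12.0 CPM in sham hearts (log2 0.11 ± 0.22, adjusted p = 0.833). Nfil3, the repressor that competes with the PAR bZIP factors at D-boxes, had 3.63, 6.44 and 14.9 CPM in TAC hearts, against 5.43, 6.68 and 12.7 CPM in sham hearts (log2 0.03 ± 0.33, adjusted p = 0.978).

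Whether the pattern of each heart lay along the hours of the clock was asked through Arntl, whose transcript peaks when those of the repressors are low. Over the 12 hearts, on log2 CPM, 4 of the 10 members had a negative correlation with Arntl past an adjusted p of 0.05 (Benjamini-Hochberg over the 10 relations, two-sided permutation test). The relation was computed for the 10 members only. The share of all genes with as strong a relation to Arntl is therefore unknown, and the count cannot be read as particular to the members. Cry2 had r = -0.82 and rho = -0.64 (permutation p = 0.0011 and 0.0281, adjusted p of r 0.01), and r = -0.63 without the 2 hearts farthest from the median of Arntl. Tef had r = -0.80 and rho = -0.78 (permutation p = 0.002 and 0.00385, adjusted p of r 0.01), and r = -0.72 without those 2 hearts. Per2 had r = -0.68 and rho = -0.73 (permutation p = 0.0148 and 0.00948, adjusted p of r 0.0493), and r = -0.84 without them. Hlf had r = -0.66 and rho = -0.64 (permutation p = 0.02 and 0.0278, adjusted p of r 0.0499), and r = -0.52 without them. As deviations from the group means, all 4 kept a negative r, from -0.88 for Cry2 to -0.62 for Hlf, with none past the threshold (adjusted p from 0.0617 to 0.161, exact permutation within groups).

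Dbp and Ciart, the members with the firmest fall after TAC, did not pass in their relation to Arntl. Dbp had r = -0.32 and rho = -0.08 (permutation p = 0.307 and 0.8), and r = -0.11 without the 2 farthest hearts. Ciart had r = -0.46 and rho = -0.29 (permutation p = 0.134 and 0.366), and r = -0.34 without them. Nr1d1 was the 1 member with a positive r over all hearts, at 0.35 with rho = 0.47 (permutation p = 0.263 and 0.128). Within surgeries the relation was given separately, with 6 hearts each. Cry2 had r = -0.78 in TAC hearts (exact p = 0.106) and -0.96 in sham hearts (exact p = 0.00139). Tef had r = -0.83 in TAC hearts (exact p = 0.0681) and -0.79 in sham hearts (exact p = 0.0694). Nr1d1 had r = 0.96 in TAC hearts (exact p = 0.00278) and 0.22 in sham hearts (exact p = 0.703), and Nr1d2 had r = -0.83 in TAC hearts (exact p = 0.0375) and 0.29 in sham hearts (exact p = 0.576). Dbp had r = 0.50 in TAC hearts (exact p = 0.332) and -0.13 in sham hearts (exact p = 0.8). These exact p-values are unadjusted, and 20 were computed within surgeries. With its few counts, Arntl carries counting error into each of them, and all genes of a heart share that library's scaling.

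**Figure D3:**
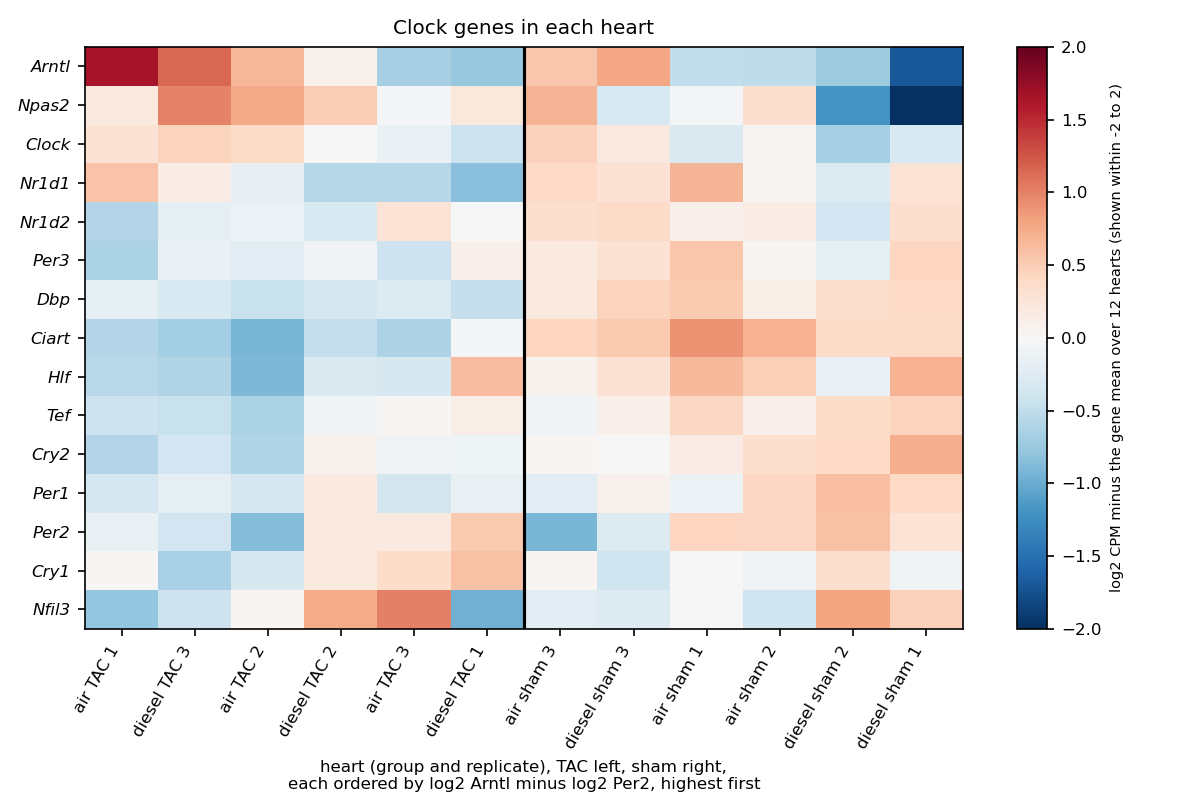
Log2 CPM of the 10 members and 5 other clock genes in each heart, as the difference from the gene's mean over 12 hearts (colour, shown within -2 to 2), with TAC hearts left and sham hearts right of the black line and each side ordered by log2 Arntl minus log2 Per2. The order of hearts on each side is set by the rows of Arntl and Per2, and the rows of Dbp and Ciart are lower in all 6 TAC hearts than in all 6 sham hearts.

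The difference of log2 Arntl and log2 Per2 gives each heart a place between 2 opposite ends of the clock. It was chosen after the values had been seen, and it is a description of where these hearts lay and not a measured hour. It ran from -4.73 to -1.65 in TAC hearts, with a median of -2.74, and from -5.42 to -1.99 in sham hearts, with a median of -4.37. TAC and sham hearts overlapped along it. Counted from the highest value, places 1, 2 and 3 were TAC hearts and places 11 and 12 were sham hearts. Every TAC heart lay below every sham heart in Dbp and Ciart. That order would hold along any measure, so setting it along this difference adds nothing to it. Whether the order goes with the hour of harvest was not tested. A single difference also cannot tell a rising from a falling phase, so hearts at like places need not be at like hours.

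**Figure D4:**
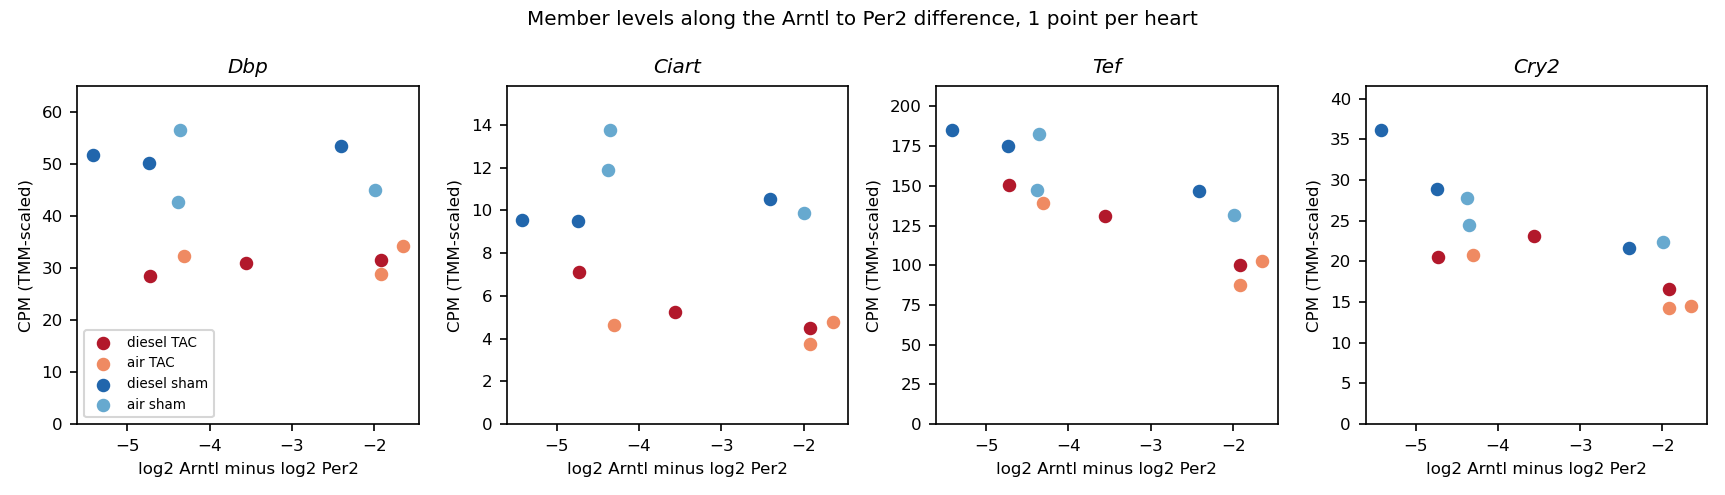
Levels of Dbp, Ciart, Tef and Cry2 in TMM-scaled CPM against log2 Arntl minus log2 Per2, with 1 point per heart and colours by group. Dbp lies at 28.5 to 34.2 CPM in TAC and 42.7 to 56.5 CPM in sham hearts, and Tef and Cry2 decline toward the right in TAC and sham hearts alike.

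The fit across all genes was repeated with the log2 CPM of Arntl as a covariate beside the group means, an alternative chosen after the data had been seen. Dbp's averaged fall was 0.70 (adjusted p = 0.00415, edgeR) and Ciart's 1.07 (adjusted p = 0.0076), against 0.68 and 1.12 without the covariate. Cry2, Per3 and Tef no longer passed, with estimates of -0.38, -0.42 and -0.31 (adjusted p = 0.174, 0.127 and 0.2). Nr1d1 passed only there, at -0.69 (adjusted p = 0.0447), and Per2 turned to 0.06. Members past the threshold numbered 3 with the covariate and 5 without, and all genes 660 and 1091. Arntl is scarce and no record of time, and the part of the hour of harvest in the differences of the 10 members was not tested.

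Relatives of the members were read from lists chosen with earlier results of these data known. Of 20 other clock genes tested among 21, 1 fell after TAC on average and none rose, a share near the 3.91% of all genes that fell, with a median log2 fold change of 0.04. The gene was Csnk1e, a kinase that marks period proteins for turnover, with 18.7, 21.5 and 29.7 CPM as the lowest, median and highest TAC heart, against 28.4, 31.0 and 38.1 CPM in sham hearts (log2 -0.49 ± 0.14, adjusted p = 0.0378, edgeR). Its call was lost in 9 of 12 fits with a library left out and held without TAC replicate 1 after filtered air and without sham replicate 3 or TAC replicate 1 after diesel exhaust, with an adjusted p up to 0.112.

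Of 16 genes known as outputs of the clock in heart or other tissues, 5 fell after TAC on average and none rose, beside 3.91% and 4.1% of all genes, with a median log2 fold change of -0.41. Usp2, a deubiquitinase with a strong rhythm in many tissues, had 80.5, 97.9 and 120 CPM as the lowest, median and highest TAC heart, against 136, 167 and 203 CPM in sham hearts. Its groups did not overlap (log2 -0.73 ± 0.13, adjusted p = 0.00109, edgeR). Klf15, a regulator of cardiac fuel use and repolarisation, had 22.1, 26.6 and 35.8 CPM in TAC hearts, against 33.3, 47.2 and 59.8 CPM in sham hearts (log2 -0.77 ± 0.15, adjusted p = 0.00177). Kcnip2, a subunit of the transient outward potassium channel that Klf15 is known to drive in mouse heart, had 23.4, 35.5 and 56.2 CPM in TAC hearts, against 38.1, 64.4 and 75.9 CPM in sham hearts (log2 -0.72 ± 0.18, adjusted p = 0.0194). Dgat2, which makes triglyceride, had a log2 fold change of -0.62 ± 0.15 (adjusted p = 0.012). Lpl, the lipase that frees fatty acids from lipoproteins, named after its values were seen, had -0.51 ± 0.14 (adjusted p = 0.0324). Usp2, Klf15 and Dgat2 kept their averaged calls without any 1 library, while Kcnip2 lost it without sham replicate 1 after filtered air (adjusted p = 0.057), sham replicate 1 (0.0516), sham replicate 3 (0.0552) or TAC replicate 1 (0.0509) after diesel exhaust. Lpl lost it in 7 of 12 such fits (up to 0.08). With Arntl as a covariate Dgat2 (log2 -0.50, adjusted p = 0.073), Kcnip2 (-0.65, 0.0666) and Lpl (-0.53, 0.0671) lost their averaged calls. Usp2 (-0.63, 0.0099) and Klf15 (-0.66, 0.0138) kept theirs. The estimate of Lpl was no smaller with the covariate, so a lost call is not by itself a smaller fall.

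After diesel exhaust alone, 3 of these 16 outputs passed, all lower, beside 1.49% of all genes: Klf15 (log2 -1.03 ± 0.21, adjusted p = 0.00649), Usp2 (-0.78 ± 0.19, 0.0208) and Dgat2 (-0.87 ± 0.21, 0.0241), all by edgeR. After filtered air none of the 16 passed. There 4 had an unadjusted p under 0.05, 3 of them lower, beside 1511 of 13626 genes in either direction and 5.14% lower. Klf15 lost its call after diesel exhaust without TAC replicate 3 (adjusted p = 0.0569), and Usp2 and Dgat2 without TAC replicate 1 or 3 or sham replicate 1 or 2 (up to 0.147 and 0.159). Dgat2 also lost it without robust weights (0.0504). With Arntl as a covariate Dgat2 (log2 -0.76, adjusted p = 0.0711) and Usp2 (-0.67, 0.0647) lost it. The interaction did not pass for any of the 16, with Klf15 at -0.52 ± 0.29.

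Immediate early and glucocorticoid-induced genes were read beside the members, since Per1 is known to answer to both kinds of signal. Of 20 immediate early genes tested, 1 rose after TAC, a share near the 4.1% of all genes, the growth inhibitor Btg2 (log2 0.54 ± 0.16, adjusted p = 0.0417, edgeR), and its call was lost in 10 of 12 fits with a library left out, up to an adjusted p of 0.138. Of 12 glucocorticoid-induced genes, a list that also holds Per1 and shares Tsc22d3 and Pdk4 with the outputs, 1 fell, beside 3.91% of all genes, the transcription factor Klf9 (log2 -0.42 ± 0.11, adjusted p = 0.0247), which lost its call without sham replicate 2 (0.065) or TAC replicate 2 (0.0746) after filtered air and without sham replicate 3 (0.0625) or TAC replicate 3 (0.0839) after diesel exhaust. Averaged over exposure, the median log2 fold change of the 20 immediate early genes was 0.20, and 16 of their estimates were positive. For the 12 glucocorticoid-induced genes the median was 0.25, and 8 estimates were positive and 4 negative. With Arntl as a covariate the averaged calls of Csnk1e (log2 -0.47, adjusted p = 0.113), Btg2 (0.48, 0.155) and Klf9 (-0.40, 0.0791) were lost. Without robust weights that of Btg2 was lost (0.0553).

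Cell type markers moved with the surgery as well. Of the 5 ventricular cardiomyocyte markers 3 fell on average after TAC, beside 3.91% of all genes. They were Myh6 (log2 -0.65 ± 0.16, adjusted p = 0.0169, edgeR), Tnni3 (-0.74 ± 0.17, 0.00788) and Tnnt2 (-0.58 ± 0.16, 0.0235). Without sham replicate 1 after filtered air the adjusted p was 0.0563 for Myh6 and 0.0746 for Tnnt2, and Tnnt2 was also lost without 4 other libraries. With Arntl as a covariate Myh6 (log2 -0.64, adjusted p = 0.0611) and Tnnt2 (-0.58, 0.0717) lost their averaged calls, and Tnni3 kept its call (-0.67, 0.0436). Of 5 fibroblast markers 3 rose, beside 4.1% of all genes, and the 5 summed to 752 to 1333 CPM in TAC hearts, against 479 to 575 CPM in sham hearts. The 4 atrial cardiomyocyte markers summed to 442 to 1714 CPM in TAC hearts, against 53.2 to 109 CPM in sham hearts. Nppa made up most of this sum, with a mean of 500 CPM over all 12 hearts. Myl4 had 9.52, Myl7 4.33 and Sln 1.72 CPM. All 4 averaged estimates were positive, and 1 of the 4 passed, so the sum does not show a rise of atrial markers as a set. The 5 macrophage markers summed to 186 to 318 CPM in TAC and 125 to 281 CPM in sham hearts. The 4 endothelial markers summed to 484 to 568 CPM in TAC and 404 to 478 CPM in sham hearts, and none of the 4 passed on average. The 4 smooth muscle markers summed to 38.4 to 104 CPM in TAC and 70.7 to 104 CPM in sham hearts. In bulk tissue, fewer cells of a type and less RNA per cell cannot be told apart. Relative to the summed ventricular markers, as log2 ratios with no test and as a scaling chosen after the data had been seen, TAC hearts differed from sham hearts by -0.61 for Ciart, -0.17 for Hlf, -0.16 for Dbp and -0.03 for Cry2. The other 6 members had positive differences on this scale, from 0.05 for Nr1d1 to 0.36 for Per2. TAC and sham hearts overlapped for all 10 members on it, including Dbp and Ciart. The part of the cardiomyocyte share in the falls of the members was not tested.

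Within the groups, members moved together to different degrees. The correlation of each member's deviation from its group mean with the mean deviation of all 10 members, itself included, was 0.88 for Tef, 0.87 for Hlf, 0.77 for Ciart and 0.76 for Per2, and 0.08 for Per1 and -0.18 for Nr1d1. Among 9701 other genes with a mean of at least 5 CPM, those most like the members in this measure over 12 hearts were Snd1 (r = 0.94), Nasp (0.94), Pcsk6 (0.92), Hspa14 (0.91) and Miip (0.91). Those most opposite were Supt7l (-0.94), Npdc1 (-0.93), Vgll4 (-0.92), Rsl24d1 (-0.90) and Tmx2 (-0.90). Clock lay near the opposite end at -0.68, the 244th from the bottom. The other clock genes read from this ranking had a positive r, namely Usp2 (0.53), Cry1 (0.49), Csnk1e (0.225) and Nfil3 (0.17). The genes at the ends are the extremes of a long ranking over 12 hearts that share a library with each gene. None of these r carries a test.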

How the data were processed

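Total RNA of 12 mouse hearts was depleted of ribosomal RNA and sequenced on an Ion instrument, with 4 samples per run, per the labels' protocols. Per the submitters' processing notes, the authors trimmed reads with cutadapt 1.6, aligned them with Subread 1.4.2 to mm10 and counted them with featureCounts, and they deposited raw counts per Entrez gene number. The strand setting, the handling of reads with several matches and the annotation version are unknown here, so genes that overlap can hold each other's reads. Totals of 5534685 to 13265816 counts limit precision, and floors of 3 counts cover counting error only.

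Symbols came from RefSeq GRCm38.p6 for 25275 genes, and exon lengths from GENCODE M21. R 4.3.3 and edgeR 4.0.16 were used. Genes were kept by filterByExpr (minimum count 10), scaled by TMM, and fitted over all 12 libraries with 1 mean for each group and robust quasi-likelihood dispersions (8 residual degrees of freedom). Adjusted p-values are from this edgeR fit over the 13626 genes tested unless another tool is named, and the threshold was 0.05. Errors of fold changes are SE and errors of levels are SD. Log2 CPM used a prior count of 2. Relations to Arntl used 100000 resamples, or all orders within groups and surgeries. The procedure was tested on simulated data. Alternatives were other scalings, no filter, DESeq2 1.42.0, limma 3.58.1 voom, a fit without robust weights, fits of only the groups compared, and each library left out. Chosen after the data had been seen were Arntl as a covariate, Clock in place of Arntl, and ratios to cardiomyocyte markers.

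The members and lists were chosen with earlier results of these data known. Genes named are the members, Arntl, Clock, Npas2, Nfil3 and Cry1 always, in the lists up to 4 genes with the smallest p among those past the threshold, and the 5 genes most and least like the members. Lpl and the cell type markers named with values were added after their values were seen. Replicates were numbered by accession order.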

Additional observations from a re-analysis of the deposited data

How the results depend on the processing

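Settings other than leaving out 1 library included fits of only the groups compared, which did not use all 12 libraries. Over these settings, 544 of 570 member results kept their direction and their side of the threshold. Of the others, 14 lost a call or a relation, 4 gained one and 8 changed sign. With 1 library left out, 763 of 840 kept both, 31 lost a call, 3 gained one and 43 changed sign. For the other named genes, over all settings together, 346 of 423 did so, 70 lost a call and 7 changed sign. The cause of these changes was not tested. No paired analysis was possible because the labels give the groups no shared replicate numbers.

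After filtered air, members past the threshold numbered 2 with no filter on low counts and 0 with Arntl as a covariate, against 1, and all genes 247 with no filter, 241 with DESeq2, 74 with voom and 71 with the covariate, against 113. With the covariate, all genes numbered 274 after diesel exhaust, against 442, and 660 on average, against 1091, where members numbered 3, against 5. Diesel exhaust against filtered air in TAC hearts and the interaction each had 1 gene with no filter and 1 with DESeq2, against 0. Relations to Arntl past the threshold numbered 0 as deviations from group means and 2 with Clock in place of Arntl, against 4.

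Leaving out 1 library, members past the threshold ran from 0 to 1 after filtered air, 0 to 1 after diesel exhaust and 2 to 5 on average. All genes ran from 39 (without TAC replicate 2) to 143 after filtered air, from 188 (without TAC replicate 3) to 530 after diesel exhaust, and from 631 (without TAC replicate 2 after filtered air) to 1213 on average.

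Signs changed for small, uncalled estimates. With library sizes free of mitochondrial genes the interaction was 0.0053 for Per1 and 0.0083 for Nr1d2. With voom it was 0.0586 for Nr1d2, and the averaged TAC estimate of Nfil3 was -0.1749. With the Arntl covariate, Per2 reached 0.1528 after diesel exhaust and 0.0636 on average, Clock -0.0321 on average, and the interaction of Nr1d2 0.0039. The r of Dbp with Arntl was 0.1716 as deviations, and the r of Nr1d2 with Clock 0.0126. With 1 library left out, the TAC estimate ran from -0.3001 to 0.142 for Per2 after diesel exhaust, and on average from -0.3002 to 0.1925 for Nfil3 and from -0.0406 to 0.2524 for Cry1. Diesel exhaust against filtered air in TAC hearts ran from -0.2428 to 0.1792 for Nr1d2. In sham hearts it ran from -0.1845 to 0.3372 for Per2, -0.2025 to 0.0853 for Per3, -0.1645 to 0.1634 for Nr1d2 and -0.3225 to 0.0838 for Hlf. Averaged over surgery it ran from -0.1373 to 0.0681 for Nr1d2, -0.0136 to 0.0911 for Dbp and -0.0621 to 0.1145 for Ciart. The interaction ran from -0.249 to 0.1122 for Per1, -0.117 to 0.2603 for Cry2, -0.45 to 0.2635 for Nr1d1, -0.2152 to 0.2221 for Nr1d2 and -0.0726 to 0.2838 for Tef. Depth limits Ciart, with at most 130 counts in a heart, and Arntl, with at most 73.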
